A study of Homo sapiens with 8 samples.

Results

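The set described here holds 9 genes taken as brakes on signalling by the B cell receptor. They are the inhibitory receptors FCGR2B, CD22, CD72, LAIR1 and PVRIG, the phosphatases PTPN6 and INPP5D, and the ubiquitin ligases CBL and CBLB. PVRIG is studied mainly on T and NK cells, and whether each gene restrains the receptor in the cells used here was not tested. Every probe that the platform annotation assigned to one of these genes was taken, which gave 9 of the 20046 named genes and 16 of the 47231 probes on the array. Of these, 14 were above background on at least 4 of the 8 arrays and were tested, and each of the 9 genes had at least 1 tested probe. Both probes that were not tested belong to PTPN6. RNA came from DOHH2, an established line of human lymphoma B cells that derives from a germinal centre type of disease. The cells were exposed to BAY1238097 (4 arrays, at 4, 8, 12 and 24 h) or to the vehicle DMSO (4 arrays, at the same times). BAY1238097 blocks the bromodomains with which BET proteins hold on to acetylated histones, and the labels state no dose. A single line was used, no time was repeated within a treatment, and nothing in the labels says whether the cultures were separate, so p-values measure only the spread between these arrays, which may be technical.

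The B cell receptor signals through kinases that phosphorylate tyrosines on CD79A and CD79B, and then through PI3 kinase, BTK and phospholipase C. The inhibitory receptors carry short tyrosine motifs in their tails that, once phosphorylated, recruit phosphatases to the active receptor. PTPN6 (SHP-1) takes phosphate off tyrosines, INPP5D (SHIP1) takes a phosphate off the lipid that PI3 kinase makes, and CBL and CBLB attach ubiquitin to active receptors and kinases.

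Values are normalised log2 intensities, so a difference of 1 is a doubling of the intensity, and a probe's level says nothing about another probe's. The lowest value above background lay between 6.76 and 6.80 on each array, and dim probes understate changes because no background was subtracted. Mean intensities before normalisation ran between 262 and 366 in BAY1238097 and between 264 and 419 in DMSO. Before normalisation the mean log2 intensity of BAY1238097 minus that of DMSO was -0.011 at 4 h and -0.26, -0.24 and -0.32 at 8, 12 and 24 h, and the part of this in the results was not tested. Of 5 B cell markers with a named probe, CD79A, CD79B, MS4A1 and BLK were kept and PAX5 was not; the mean over the 11 probes of this list ran between 7.95 and 8.02 in BAY1238097 and between 8.22 and 8.33 in DMSO. Of the 4 kept B cell markers, CD79B and MS4A1 (above background on 2 BAY1238097 arrays and 4 DMSO arrays) fell with BAY1238097 and 0 rose (0 also at an unadjusted p under 0.05, limma), against 30.0% of all genes called, 15.4% higher and 14.5% lower, on their brightest probe. Their part in the results was not tested. CD79B did not pass without the 4, 8 or 12 h arrays or without the block, and MS4A1 did not pass without the 8, 12 or 24 h arrays (0.107, 0.0600 and 0.0666). The CD79B difference narrowed from -1.24 at 4 h to -0.081 at 24 h. The germinal centre markers BCL6, MYBL1 and S1PR2 were not kept, while MME and LMO2 were. LMO2, above background on 4 BAY1238097 arrays and 0 DMSO arrays, was at least 1.10-fold higher with BAY1238097 (adjusted p = 0.0237 by limma). That call was lost without the 8, 12 or 24 h arrays (0.0733, 0.0957 and 0.0689). LMO2 was kept only through the BAY1238097 arrays, so its direction was fixed by the filter and the call supports nothing further. MME differed by -0.50 and did not pass (adjusted p = 0.0568), though it passed without the 4 h arrays (-0.71, adjusted p = 0.00107). Of the 6 T cell and 5 NK cell markers 0 were kept, and the mean log2 value of their probes ran between 6.56 and 6.57 in BAY1238097 and between 6.56 and 6.60 in DMSO for T cells, and between 6.53 and 6.61 in BAY1238097 and between 6.54 and 6.58 in DMSO for NK cells. Of the myeloid markers CD14 was kept, above background on 2 arrays of each treatment, and LYZ, CSF1R, ITGAM and FCGR1A were not.

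With BAY1238097 the signal of several of these brakes was lower and that of others higher. PVRIG, PTPN6, FCGR2B and INPP5D fell, by 3.80-fold, 1.90-fold, 1.61-fold and 1.28-fold over the 4 times on their most changed probes. CBL rose 1.22-fold on 1 of its 2 probes. CBLB was higher with BAY1238097 from 8 h on, by 3.23-fold at 24 h, and its difference grew with time. Over all times CBLB, CD22, CD72 and LAIR1 did not pass the test. In all, 6 of the 14 tested probes passed at an adjusted p under 0.05 (limma, Benjamini-Hochberg over all 18640 tested probes), 5 lower and 1 higher, against 25.5% of all tested probes, 12.8% lower and 12.7% higher. The calls of PVRIG, PTPN6 and both of these FCGR2B probes held whichever time was left out, and those of INPP5D and CBL did not. Of all calls 49.7% were higher; median scaling in place of quantile normalisation gave 23.7% higher, and median scaling after background correction gave 20.9%. On 5 probes, all lower, the 4 BAY1238097 arrays did not overlap the 4 DMSO arrays, against 17.8% of all tested probes (8.87% higher and 8.96% lower). PTPN6, CD22 and PVRIG met the filter on dim probes largely through the DMSO arrays (PVRIG on 4 DMSO and 2 BAY1238097 arrays). These counts therefore describe the kept probes and support nothing further. The median change over the 14 probes was -0.085, against 0.0080 over all tested probes. In RNA of whole cultures, fewer cells that express a gene and less RNA per cell cannot be told apart.

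**Figure D1:**
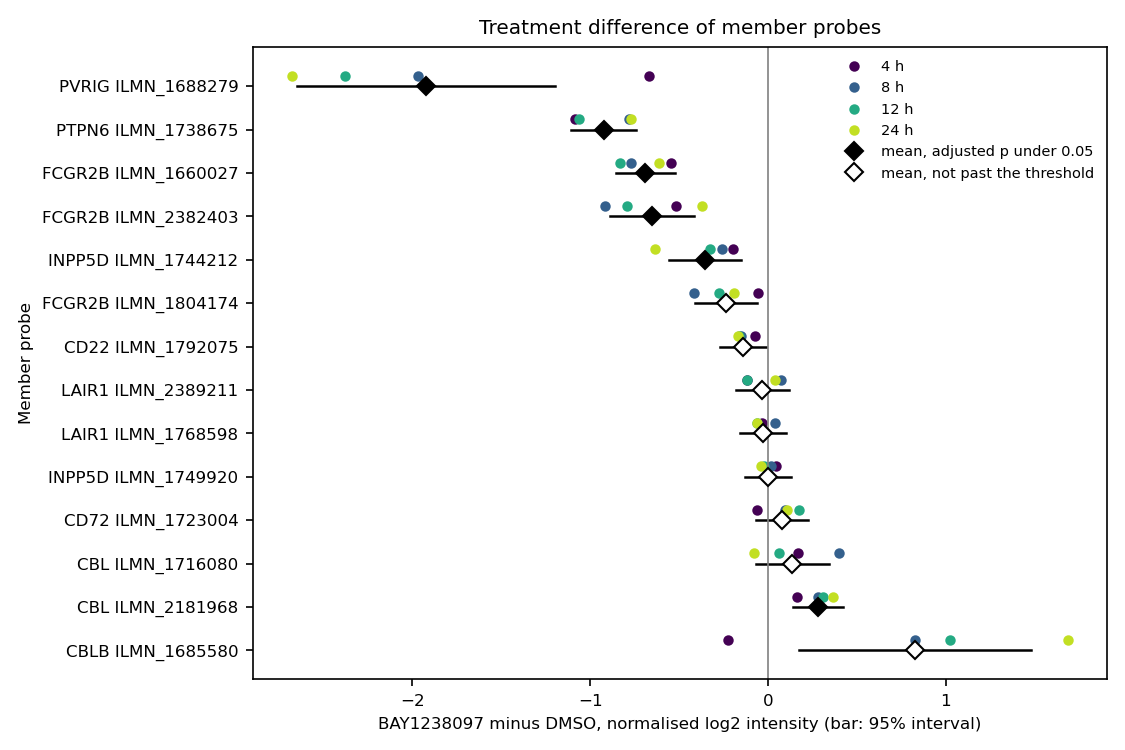
Difference of BAY1238097 minus DMSO in normalised log2 intensity for the tested probes of the 9 genes, with the 4 times and the fitted mean with its 95% interval. PVRIG reached -2.68 at 24 h and CBLB 1.69, while the LAIR1 and CD72 probes stayed near 0.

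Promoter sequences are shown for the 5 member genes whose level or time course passed a test and which had an entry, so that a reader can see what lies at their starts. They are 300-base windows around the most upstream annotated start, from RefSeq on GRCh38.p14, written 5′ to 3′ on the strand of the gene; 8 of the 9 genes matched, and CBL is named only. Capitals mark AGGAAGT, a form of the core bound by ETS family factors, or its reverse complement ACTTCCT.
PVRIG, chr7:100219699-100219998, plus strand: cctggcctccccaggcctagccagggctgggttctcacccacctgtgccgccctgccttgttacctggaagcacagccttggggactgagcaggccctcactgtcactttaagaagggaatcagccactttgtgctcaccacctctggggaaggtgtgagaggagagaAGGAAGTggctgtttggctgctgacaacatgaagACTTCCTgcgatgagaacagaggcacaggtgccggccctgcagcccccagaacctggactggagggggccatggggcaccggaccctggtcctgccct
PTPN6, chr12:6946327-6946626, plus strand: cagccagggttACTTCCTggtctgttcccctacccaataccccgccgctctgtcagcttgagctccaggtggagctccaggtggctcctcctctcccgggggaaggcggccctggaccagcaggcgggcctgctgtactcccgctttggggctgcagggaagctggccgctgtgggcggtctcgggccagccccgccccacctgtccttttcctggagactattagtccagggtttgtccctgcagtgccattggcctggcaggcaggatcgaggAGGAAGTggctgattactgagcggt
INPP5D, chr2:233060092-233060391, plus strand: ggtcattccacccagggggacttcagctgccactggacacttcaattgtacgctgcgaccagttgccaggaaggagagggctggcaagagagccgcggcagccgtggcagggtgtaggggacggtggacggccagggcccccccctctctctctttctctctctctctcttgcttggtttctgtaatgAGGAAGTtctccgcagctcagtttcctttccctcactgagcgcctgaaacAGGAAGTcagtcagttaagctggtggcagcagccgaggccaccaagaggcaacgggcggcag
FCGR2B, chr1:161646993-161647292, plus strand: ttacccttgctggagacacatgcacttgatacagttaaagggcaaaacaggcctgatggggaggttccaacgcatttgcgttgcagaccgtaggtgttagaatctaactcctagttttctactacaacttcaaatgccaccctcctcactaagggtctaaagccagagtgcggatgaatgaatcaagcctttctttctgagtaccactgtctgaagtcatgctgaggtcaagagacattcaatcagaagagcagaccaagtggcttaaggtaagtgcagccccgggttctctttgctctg
CBLB, chr3:105869352-105869651, minus strand: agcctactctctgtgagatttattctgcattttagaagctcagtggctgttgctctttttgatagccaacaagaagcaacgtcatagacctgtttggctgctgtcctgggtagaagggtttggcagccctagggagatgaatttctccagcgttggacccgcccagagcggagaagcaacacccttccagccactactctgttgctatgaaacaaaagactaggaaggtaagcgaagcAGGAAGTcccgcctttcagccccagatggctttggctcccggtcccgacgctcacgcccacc
AGGAAGT, searched on both strands, was found in the windows of PVRIG and PTPN6 (2 matches each), INPP5D (2) and CBLB (1), and not in that of FCGR2B. Some genes have several windows, and which start is used in these cells was not tested. Of all 15 windows of the 8 matched genes, 4 hold AGGAAGT, against 8.24% of all 35116 promoter windows. CAGGTG, an E-box of the kind bound by E proteins such as TCF3, was found 2 times in the PVRIG window, 3 times in that of PTPN6 and 1 time in that of LAIR1. Of the 15 member windows 3 hold CAGGTG, against 20.6% of all windows. CACGTG, the E-box bound by MYC and its relatives, was found in 0 member windows, against 7.26% of all windows. A match is a description of letters only.

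Among the receptors, FCGR2B, the inhibitory Fc receptor for IgG that recruits INPP5D, was lower with BAY1238097 at every time. Its brightest probe, ILMN_1660027, had 8.27, 8.48, 8.42 and 8.33 at 4, 8, 12 and 24 h in BAY1238097, against 8.82, 9.25, 9.26 and 8.95 in DMSO. All 4 BAY1238097 arrays lay below all 4 DMSO arrays. The difference was -0.69 ± 0.07 (SE, 4 arrays per group), with an adjusted p of 0.00204 by limma. A further probe, ILMN_2382403, had 7.19, 7.04, 7.04 and 7.12 in BAY1238097, against 7.71, 7.95, 7.84 and 7.49 in DMSO. Again the groups did not overlap, and the gap was smallest at 24 h. Its difference was -0.65 ± 0.10, with an adjusted p of 0.00635 by limma. The probe ILMN_1804174 had 7.28, 7.02, 6.95 and 6.98 in BAY1238097, against 7.34, 7.43, 7.23 and 7.17 in DMSO. Here the 4 h BAY1238097 array lay among the DMSO arrays, and the difference of -0.23 ± 0.07 did not pass (adjusted p = 0.0584 by limma). Without the 4 h arrays it was -0.29 and passed (0.0182). It also passed with median scaling (0.0413), array weights (0.00750) and a variance trend (0.0338). With normexp background correction it passed under quantile normalisation (0.0444) and median scaling (0.0275). Under the other alternatives that tested this probe it did not pass. FCGR2B is nearly identical to FCGR2A and FCGR2C over much of its length, so a probe may catch their RNA as well. FCGR2A, the activating relative, differed by -0.091 with an adjusted p of 0.296 by limma. Its probe sat near background, at means of 6.86 in BAY1238097 (above background on 3 arrays) and 6.95 in DMSO, so a change may be understated. FCGR2C was not analysed here.

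PVRIG, a receptor for NECTIN2 studied mainly on T and NK cells, showed the widest gap of the set. Its probe had 7.68, 6.81, 6.75 and 6.63 at 4, 8, 12 and 24 h in BAY1238097, against 8.35, 8.78, 9.12 and 9.31 in DMSO. The arms moved apart at each step, and the groups did not overlap. The BAY1238097 value was above background at 4 and 8 h only, so the later differences are limited by background. By time the intensity was lower with BAY1238097 by 1.59-fold, 3.91-fold, 5.20-fold and 6.40-fold. Over all times the difference was -1.92 ± 0.30 with an adjusted p of 0.00700 by limma. The T and NK cell marker lists held 0 kept probes, as given above. PVRIG has a near copy in the pseudogene PVRIG2P, and whether the probe tells them apart was not tested.

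The other receptors stayed closer to DMSO. CD22, a sialic acid binding lectin that recruits PTPN6, had 6.84, 6.75, 6.77 and 6.73 in BAY1238097, against 6.91, 6.90, 6.93 and 6.90 in DMSO. All 4 BAY1238097 arrays were below all 4 DMSO arrays, but only 1 of them was above background, and the difference of -0.14 ± 0.05 did not pass (adjusted p = 0.107 by limma), though it did with array weights (0.0344) and with a variance trend (0.0366). CD72, a lectin-like receptor for SEMA4D, had 6.74, 6.80, 6.85 and 6.99 in BAY1238097, against 6.80, 6.70, 6.68 and 6.89 in DMSO. The groups overlapped, and the 95% interval of the difference ran from -0.067 to 0.23 (adjusted p = 0.395 by limma). LAIR1, a receptor for collagen, had 13.63, 13.60, 13.40 and 13.44 on ILMN_2389211 in BAY1238097, against 13.75, 13.53, 13.52 and 13.40 in DMSO. This probe stood near the top of the array's scale, with 120 probes brighter, where a change can be compressed, and its interval ran from -0.18 to 0.12 (adjusted p = 0.757 by limma). The LAIR1 probe ILMN_1768598 sat near background, with 6.87, 6.88, 6.87 and 6.92 in BAY1238097 and 6.90, 6.84, 6.94 and 6.98 in DMSO, and an interval from -0.16 to 0.10 (adjusted p = 0.743 by limma). Which transcripts the LAIR1 probes match was not analysed here.

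Among the phosphatases, PTPN6 fell on the only probe that was above background. ILMN_1738675 had 6.75, 6.73, 6.74 and 6.90 at 4, 8, 12 and 24 h in BAY1238097, against 7.83, 7.51, 7.80 and 7.67 in DMSO. The groups were far apart from 4 h on, and with BAY1238097 the probe was above background at 24 h only, so the size is limited by background. The difference was -0.92 ± 0.08, with an adjusted p of 0.00125 by limma. The other PTPN6 probes, ILMN_1664122 and ILMN_1716578, were above background on 0 of 8 arrays. Their values ran between 6.53 and 6.57 in BAY1238097 and between 6.40 and 6.64 in DMSO. ILMN_1664122 is annotated to the same transcript record as ILMN_1738675, so the fall of PTPN6 rests on 1 of 3 probes.

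INPP5D fell by a smaller step. ILMN_1744212 had 7.73, 7.52, 7.90 and 7.63 in BAY1238097, against 7.93, 7.78, 8.23 and 8.27 in DMSO. BAY1238097 was lower at each of the 4 times, with differences of -0.19, -0.26, -0.33 and -0.64, although the groups overlapped across times. The difference was -0.36 ± 0.08, with an adjusted p of 0.0247 by limma; it did not pass without the time point as a block (adjusted p = 0.117), nor without the 8, 12 or 24 h arrays (0.0791, 0.101 and 0.0522). The other INPP5D probe, ILMN_1749920, had 6.83, 6.82, 6.72 and 6.71 in BAY1238097, against 6.79, 6.80, 6.74 and 6.74 in DMSO. It was above background on 2 arrays of each group, and its interval ran from -0.13 to 0.13 (adjusted p = 0.995 by limma).

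Among the ubiquitin ligases, CBL rose on 1 of its 2 probes. CBL on ILMN_2181968 had 8.34, 8.57, 8.83 and 9.07 at 4, 8, 12 and 24 h in BAY1238097, against 8.18, 8.29, 8.52 and 8.70 in DMSO. Values were higher at each later time in both arms, and BAY1238097 was above DMSO at each of the 4 times, with overlap across times. The difference was 0.28 ± 0.06, with an adjusted p of 0.0172 by limma. It did not pass with median scaling (0.13, adjusted p = 0.136), with background correction and median scaling (0.11, adjusted p = 0.291), without the block (adjusted p = 0.348), or without the 8, 12 or 24 h arrays (0.0800, 0.0957 and 0.0602). The other CBL probe, ILMN_1716080, had 7.74, 8.20, 7.92 and 8.02 in BAY1238097, against 7.57, 7.80, 7.86 and 8.10 in DMSO. The arms crossed at 24 h, and its difference of 0.14 ± 0.09 did not pass (adjusted p = 0.291 by limma).

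CBLB, the ligase best known for raising the threshold of lymphocyte activation, had 7.69, 8.79, 9.01 and 9.71 at 4, 8, 12 and 24 h in BAY1238097, against 7.91, 7.96, 7.99 and 8.02 in DMSO. After quantile normalisation it stayed within a narrow range in DMSO and was higher at each later time in BAY1238097. It was below DMSO at 4 h by 1.17-fold and above DMSO by 1.77-fold, 2.04-fold and 3.23-fold at 8, 12 and 24 h. The 4 h array went the opposite way, and the mean difference of 0.83 ± 0.27 did not pass (adjusted p = 0.0684 by limma, 95% interval from 0.18 to 1.48). Without the 4 h arrays it was 1.18 with an adjusted p of 0.00308.

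**Figure D2:**
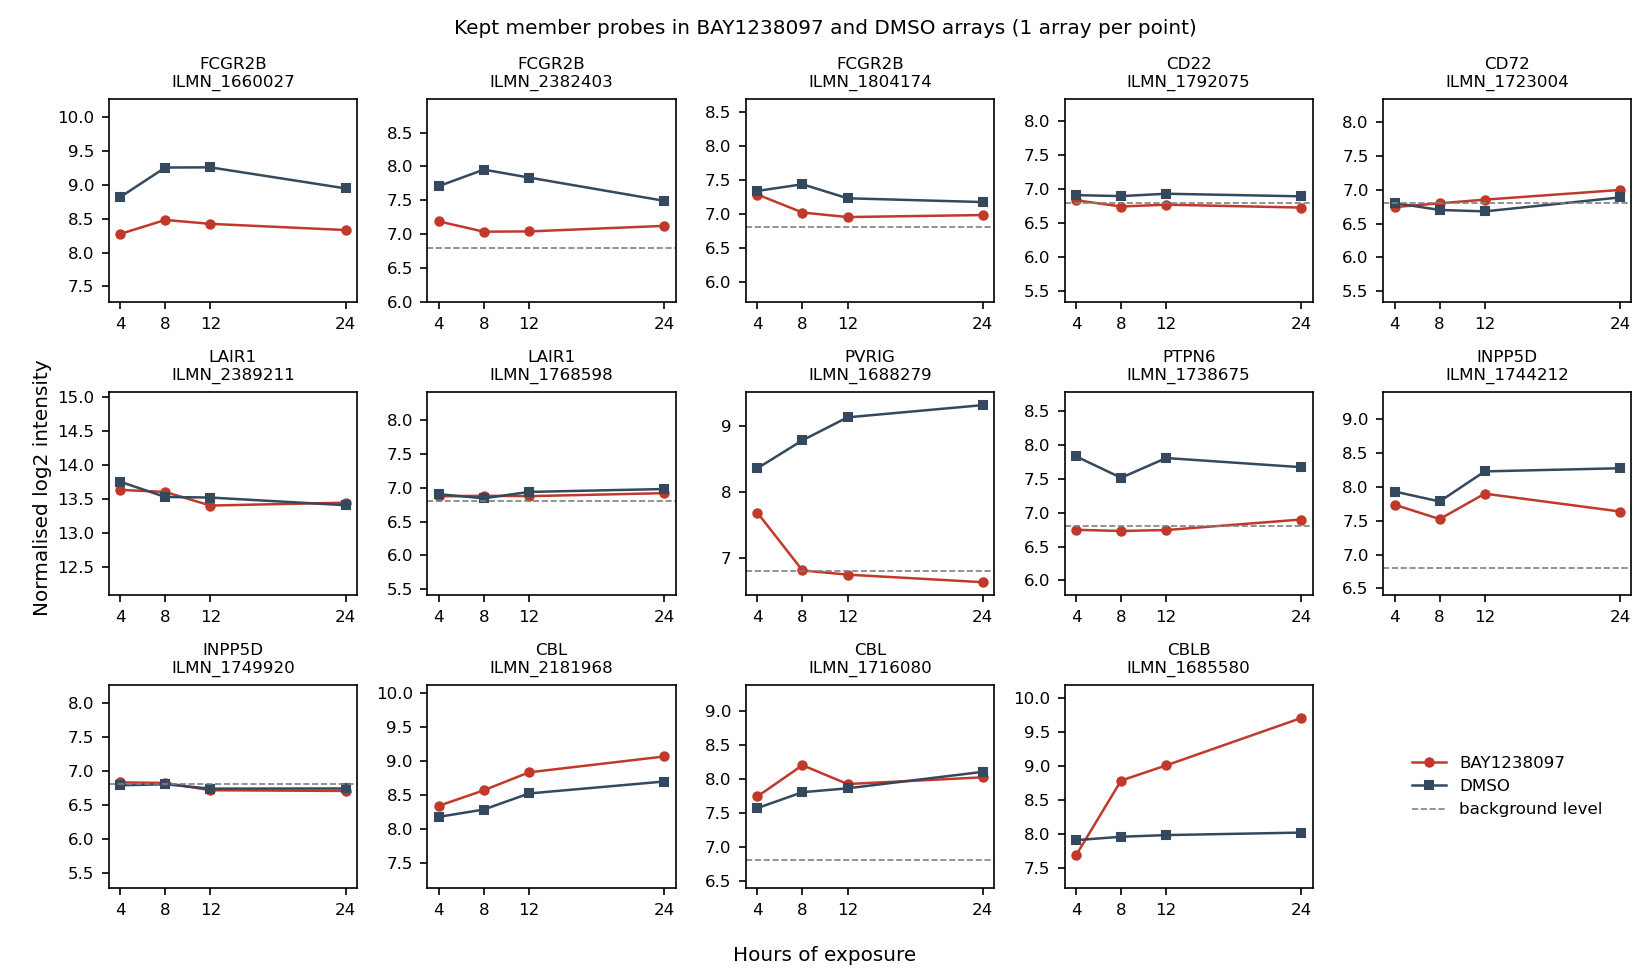
Normalised log2 intensity (vertical axis) against hours of exposure (horizontal axis), 1 point per array, for BAY1238097 (circles) and DMSO (squares), with the background level dashed. CBLB climbed to 9.71 with BAY1238097 and stayed near 8 in DMSO, while PVRIG ended at 6.63 with BAY1238097 and at 9.31 in DMSO.

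The time courses of PVRIG and CBLB separated between the arms. The change of the difference per doubling of the hours was -0.77 ± 0.11 for PVRIG (adjusted p = 0.0289 by limma) and 0.72 ± 0.07 for CBLB (adjusted p = 0.0249 by limma). These 2 of 14 probes passed, against 3.06% of all tested probes (1.63% higher and 1.43% lower). The members were chosen with earlier results of these data known, so this share supports nothing further. The other 12 probes had coefficients between -0.17 and 0.092. With BAY1238097 the PVRIG probe was not above background at 12 and 24 h, so the size of its coefficient is not exact. Neither call held with array weights, at adjusted p-values of 0.0720 and 0.0550, and without the 4 h arrays the PVRIG coefficient was -0.43 (adjusted p = 0.0112).

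Within BAY1238097, 3 of 14 probes had a slope on log2 hours that passed, against 7.14% of all tested probes (4.13% higher and 3.02% lower). The members were chosen with earlier results known, so this share and that in DMSO support nothing further. CBLB climbed by 0.76 ± 0.06 per doubling of the hours (adjusted p = 0.00729 by limma), CBL on ILMN_2181968 by 0.29 ± 0.04 (adjusted p = 0.0178), and PVRIG fell by 0.39 ± 0.09 (adjusted p = 0.0444), again with 12 and 24 h values at background. The PVRIG slope no longer passed without the 4 h arrays (-0.11, adjusted p = 0.499), the 8 h arrays (0.0951) or the 12 h arrays (0.0991). Nor did it pass under median scaling, with array weights (-0.26, adjusted p = 0.279) or with no filter on dim probes (0.0783). Without the 4 or 8 h arrays 0 of the 14 slopes passed in limma, though 2 and 3 member probes had an unadjusted p under 0.05. Median scaling also left 0, with 3 at an unadjusted p under 0.05; the slopes were then 0.88 for CBLB (adjusted p = 0.0555) and 0.46 for CBL (adjusted p = 0.0662). The CBL slope also did not pass without the 12 h arrays (0.0586) or with array weights (0.0999). In DMSO 1 of 14 slopes passed, against 4.46% of all tested probes (2.01% higher and 2.45% lower): CBL on ILMN_2181968 climbed by 0.21 ± 0.04 (adjusted p = 0.0458 by limma). That call was lost when any 1 time was left out, with array weights, with a variance trend and with median scaling, where the slope was 0.45 (adjusted p = 0.0743). PVRIG had a DMSO slope of 0.38 ± 0.09, which did not pass (adjusted p = 0.0550 by limma). It passed without the 24 h arrays (0.48, adjusted p = 0.0215), with 1 probe a gene (0.0464) and with a variance trend (0.0284). CBLB had a DMSO slope of 0.043 (adjusted p = 0.709 by limma). With median scaling the CBLB slope in DMSO was 0.27 (adjusted p = 0.164), and with background correction and median scaling 0.35 (adjusted p = 0.125). For CBL the arms' slopes differed by 0.078 per doubling, which did not pass (adjusted p = 0.502 by limma).

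Other genes of the pathway were read on the brightest tested probe of each gene, where 30.0% of 10443 genes passed, 15.4% higher and 14.5% lower, with a median change of 0.010. Several genes had more than 1 tested probe, such as CD79B with 3 and PRKCB with 5, and their other probes are not reported here. Of 16 other inhibitory receptors, 14 were on the array and 9 were tested: 5 fell and 0 rose (0 also at an unadjusted p under 0.05), with a median of -0.29. FCRL4, CD200R1 and FCRL3 met the filter on dim probes through the DMSO arrays, on which they were higher, so this count and median are partly fixed by the filter and support nothing further. FCRL2, an Fc receptor-like protein of B cells, fell to 7.11 ± 0.45 in BAY1238097, against 8.41 ± 0.18 in DMSO (SD, 4 arrays each; difference -1.30, adjusted p = 0.00236 by limma). Its relative FCRL4 was 6.75 ± 0.33 in BAY1238097, above background on 1 array of 4, and 7.87 ± 0.48 in DMSO (difference -1.11, adjusted p = 0.00231). CEACAM1, an adhesion receptor that recruits PTPN6, differed by -0.76 (adjusted p = 0.00426). CD200R1, the receptor of CD200, was above background on 0 BAY1238097 arrays and at least 1.11-fold lower there, with an adjusted p of 0.0127. FCRL3 was likewise at least 1.04-fold lower, with an adjusted p of 0.0240. These limits set the mean in DMSO against the lowest signal above background. CD200R1 did not pass without the 8 h arrays (0.0622) or the 12 h arrays (0.0631), nor did FCRL3 without the block (0.0509) or without the 8, 12 or 24 h arrays (0.110, 0.117 and 0.0723).

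Of 26 other phosphatases, kinases and adaptors that restrain receptor signalling, 18 were tested: 6 fell and 2 rose, with a median of -0.051. DOK3, among those that fell, was above background on 1 BAY1238097 array and 3 DMSO arrays. It met the filter on dim probes largely through the DMSO arrays, on which it was higher, so this count supports nothing further. PTPN22, a tyrosine phosphatase that acts on Src family kinases, was 7.73 ± 0.33 in BAY1238097 and 8.86 ± 0.09 in DMSO (difference -1.13, adjusted p = 0.00329 by limma). GRAP, an adaptor related to GRB2, differed by -0.76 (adjusted p = 0.00155), and DGKA, which removes diacylglycerol, by -0.48 (adjusted p = 0.00937). DGKA did not pass without the block (0.101), the 8 h arrays (0.0585) or the 12 h arrays (0.0606). PTPN12, a phosphatase of focal adhesion proteins, was 8.22 ± 0.14 in BAY1238097 and 7.51 ± 0.09 in DMSO (difference 0.71, adjusted p = 0.00202). PHLPP2, a phosphatase of AKT, rose by 0.28 (adjusted p = 0.0122), a call lost with median scaling (0.18, adjusted p = 0.0585), without the block (0.173) and without the 8 or 12 h arrays (0.0625 and 0.0813).

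Of 14 ubiquitin and adaptor partners of CBL proteins, 8 were tested, and SPRY1, which binds CBL, fell (difference -0.45, adjusted p = 0.00944 by limma) while 0 rose (1 at an unadjusted p under 0.05). SPRY1 did not pass without the 8 h arrays (0.0569). Of 15 ligands, near copies and partners of the member receptors, 7 were tested, and SLC35A1, which carries the sialic acid donor into the Golgi and so bears on CD22 ligands, rose by 0.44 (adjusted p = 0.0293), while 0 fell (1 at an unadjusted p under 0.05). SLC35A1 did not pass with median scaling (0.24, adjusted p = 0.0859), without the block (0.0710) and without the 8, 12 or 24 h arrays (0.123, 0.119 and 0.0787). Of 26 genes of the activating core, 20 were tested: 5 fell and 3 rose, with a median of -0.023. RASGRP3 and BTK, which carry the signal toward RAS and phospholipase C, differed by -0.86 each (adjusted p = 0.00664 and 0.00475 by limma), CD79B, a receptor chain, by -0.63 (adjusted p = 0.0437), and VAV1, an exchange factor, by -0.40 (adjusted p = 0.00544). By time the CD79B difference was -1.24, -0.82, -0.38 and -0.081 at 4, 8, 12 and 24 h. The CD79B call was lost without the 4, 8 or 12 h arrays (0.0516, 0.171 and 0.102) and without the block (0.0763), and that of VAV1 without the block (0.0628). PIK3CD, the catalytic chain of PI3 kinase in lymphocytes, fell by 0.37 (adjusted p = 0.0159). LYN, a Src family kinase that also phosphorylates the inhibitory motifs, PIK3R1, a regulatory chain of PI3 kinase, and PRKCB, a protein kinase C, rose by 0.32, 0.34 and 0.36 (adjusted p = 0.0292, 0.0101 and 0.0364 by limma). With median scaling LYN and PRKCB no longer passed (0.12 and 0.16, adjusted p = 0.261 and 0.339). Without the block 0 of LYN, PIK3R1, PRKCB and PIK3CD passed (adjusted p of 0.251, 0.491, 0.130 and 0.0593). These 4 also failed without the 8 h arrays and without the 12 h arrays. LYN failed without the 24 h arrays too (adjusted p = 0.0844 by limma), and PRKCB without the 4 or 24 h arrays (0.0630 and 0.106). The difference between the brakes and the activating core was not tested.

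**Figure D3:**
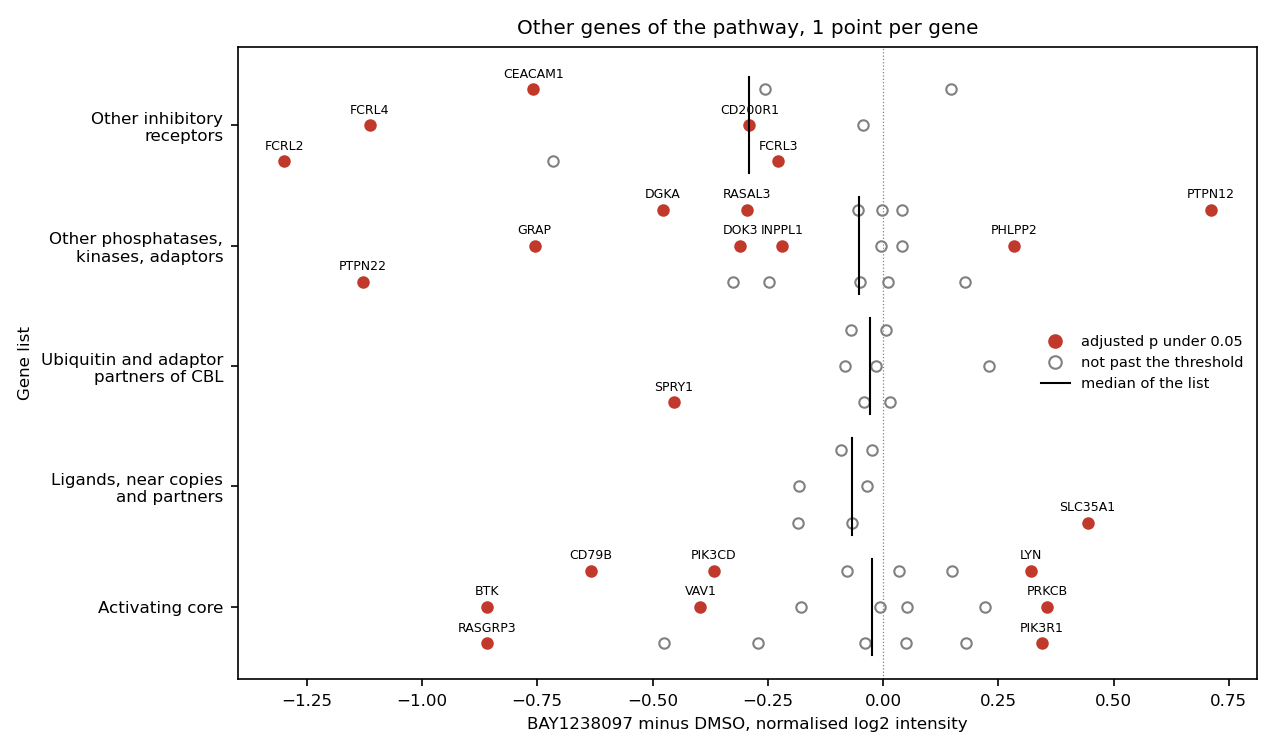
Difference of BAY1238097 minus DMSO in normalised log2 intensity for the brightest tested probe of each gene of 5 gene lists, with filled points where the adjusted p was under 0.05 and a bar at the median of each list. FCRL2, PTPN22 and FCRL4 lay lowest and PTPN12 highest.

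The genes whose values ran most like those of the most changed members were ranked by Pearson's r over the 8 arrays, as a description; the arrays share their treatment and time. For PVRIG they were DNAJC12 (0.993), ACSL5 (0.988), KYNU (0.986), BBOX1 (0.986) and ARHGAP9 (0.985). For PTPN6 they were CD59 (0.998), AGMAT (0.988), GRAMD1B (0.987), NOL4 (0.984) and CHRNA6 (0.981). The treatment difference was largest in these lists for BBOX1, at -2.26, and NOL4, at -1.61, beside -1.92 for PVRIG and -0.92 for PTPN6.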

How the data were processed

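Total RNA of DOHH2 cells was labelled as biotinylated cRNA with an Ambion kit, per the labels' protocols, and hybridised to Illumina bead arrays. The deposited table of linear intensity values, 1 per probe, carries no normalisation or background subtraction, as its values show; its 10 unnamed columns hold no values and were not used. The deposited log2 values equal quantile-normalised log2 intensities within 0.00126 and were analysed as given; scanning software was not given in the sources used here. Gene names came from the platform annotation (30113 probes with 1 symbol, 8 with several, 17110 with none).

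A probe was above background on an array where a share under 0.05 of 437 olfactory receptor probes was at least as bright, and 18640 probes above background on at least 4 arrays were kept. limma 3.58.1 in R 4.3.3 fitted treatment with the time point as a factor, treatment by centred log2 hours, and slopes on log2 hours per arm, with Benjamini-Hochberg adjustment over all kept probes and a threshold of 0.05. Each time holds 1 array of each treatment, and the deviations of these pairs correlated at 0.60, 0.40, 0.67 and 0.48, so the time served as the block. A probe with 0 arrays above background in a group is given as a bound. Figures used matplotlib 3.10.9 in Python 3.11.15. The steps were tested on simulated data. Alternatives were other normalisations, normexp background correction (offset 50), other filters, no block, 1 probe a gene, array weights, a variance trend and leaving out each time. The text names every member probe, up to 4 genes of each list with the largest change among those past the threshold, and the 5 genes most like the 2 most changed members. FCRL3, FCGR2A, DOK3, PHLPP2, PIK3CD, LYN, PIK3R1, PRKCB and marker genes were named after their values were seen. The members and lists were chosen with earlier results of these data known.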

Additional observations from a re-analysis of the deposited data

Results flagged for a closer look

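PVRIG and CBLB stood out because their difference between the arms changed with time, by -0.77 and 0.72 log2 units per doubling of the hours. In BAY1238097 the 4 h array stood apart for PVRIG, at 7.68 against 6.63 to 6.81 at the later times, a gap of 0.831 of the range. The 24 h array stood apart for PTPN6 on ILMN_1738675, at 6.90 against 6.73 to 6.75, a gap of 0.9 of the range, and for LAIR1 on ILMN_1768598, at 6.92 against 6.87 to 6.88, a gap of 0.831. These are 3 of 28 groups of 4 arrays examined. Chance marks about 1 in 20 groups of repeats, but the arrays of a group here are 4 different times. That rate therefore does not apply, and a change over time can itself set the mark.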

How the results depend on the processing

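The number of member probes called for treatment was 6 and ranged from 4 to 9 over all alternatives, with 4 without the replicate block and 4 to 8 when a time was left out. The falls of PVRIG, PTPN6 and FCGR2B (ILMN_1660027 and ILMN_2382403) kept their direction and call under every alternative that tested them; the filter for all 8 arrays dropped PVRIG and PTPN6. CBLB passed for treatment with normexp and quantile normalisation (0.90), array weights (0.997) and a variance trend. Counts of calls for treatment by time went to 1 with the filter for all 8 arrays and to 0 with array weights (3 at an unadjusted p under 0.05, limma), and were 2 to 3 when a time was left out. Slopes in BAY1238097 went to 0 with median scaling, with or without normexp (3 unadjusted each), to 1 with array weights, and to 0 to 3 when a time was left out. Slopes in DMSO went to 0 with median scaling (5 unadjusted), normexp with median scaling (6) and array weights (2), to 2 with 1 probe a gene, and to 0 to 1 when a time was left out. Calls over all probes went from 4758 to 2172 without the replicate block, 3161 with 1 probe a gene, 7567 with array weights and to 1659 and 1775 without the 12 or 8 h arrays (3425 and 6372 without the 24 or 4 h arrays). Calls over the lists went from 23 to 10 without the replicate block and 9 to 30 when a time was left out. Fewer probes or arrays enter some of these fits by construction; otherwise the cause was not tested. Signs turned for values that did not pass: LAIR1 ILMN_2389211 to 0.050 with median scaling and 0.020 with normexp and median scaling; INPP5D ILMN_1749920 to -0.019, -0.031 and, with array weights, -0.010, and to -0.014 and -0.0057 without the 4 or 8 h arrays; CBL ILMN_1716080 to -0.011 and the time coefficient of CBL ILMN_2181968 to -0.016 with normexp and median scaling. Signals near background, on PVRIG, PTPN6, CD22 and INPP5D ILMN_1749920, limit what sizes can be read.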
